A study of Mus musculus with 4 samples.

Results

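Red pulp macrophage and iron genes were followed on 4 arrays of splenic dendritic cells (DC): Slc40a1, Hmox1, Spic, Vcam1, Cd5l, Fcna, Adgre1, Timd4, Mrc1 and Sirpa. All 10 genes were measured, by 14 of the 28898 probe sets that are annotated with exactly 1 gene symbol, among 17097 genes in all. DC were purified from spleens of WT C57BL/6 mice (written C56BL/6 in the sample labels) and of MARCO-/- mice, which lack the scavenger receptor MARCO. The mice were 8 to 12 weeks old, the WT mice were purchased as age- and sex-matched controls, and their sex is not stated. CD11c-positive cells were selected from the pooled spleens of 5 to 6 mice and kept overnight with PBS or with LPS at 100 ng/ml, a bacterial product that activates TLR4. Each genotype was hybridized once after PBS and once after LPS. There are therefore no replicates, no error and no test of any ratio, and genes are counted when they pass the 2-fold threshold that the study's methods use.

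Red pulp macrophages clear aged red blood cells from the circulation. They engulf the cells, break down the heme that hemoglobin releases and return the iron to the plasma. The transcription factor Spi-C is required for their development, heme oxygenase 1 opens the heme ring, and ferroportin exports the freed iron. Several genes of the set are not private to these macrophages: Sirpa is also made by a subset of conventional DC, Hmox1 is inducible in many cells, and Vcam1 is displayed by activated endothelium and stroma.

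Values are RMA intensities on a linear scale. The median of all intensities is 4.87, and a value near it is background, so that a fold against such a value is set by the background and not by the transcript. With PBS, every member was above 2 times the array's median on both arrays. With LPS, 4 members were under it on the WT array and 4 on the MARCO-/- array. In RNA of a whole cell preparation, fewer cells of a type and less RNA per cell cannot be told apart. The purified cells carried the defining DC transcripts with PBS: Itgax, which encodes CD11c, stood at 548 in WT and at 621 in MARCO-/-. The MHC class II gene H2-Ab1 had 3356 and 3710.2. With LPS, Itgax had 12.9 and 16.4.

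Nearly the whole set was lower with LPS than with PBS. In WT DC, 9 of the 10 members were at least 2-fold lower and none was at least 2-fold higher, where 8.31% of all genes were lower by that much and 6.2% were higher. In MARCO-/- DC, 7 of the 10 were at least 2-fold lower and none higher, against a background of 5.98% lower and 6.32% higher. Among all genes with a highest intensity of at least 64, 15.6% were lower in WT and 11.4% in MARCO-/-. Of the 8 members that reached this intensity, 7 were lower in WT and 6 in MARCO-/-. The median log2 ratio of the members was -2.60 in WT and -2.10 in MARCO-/-, while the median of all genes was 0.054 and 0.00. Spic was the exception, with a higher value with LPS in both genotypes. Hmox1 and Timd4 were past 2-fold in WT but not in MARCO-/-. Itgax and other DC markers were at least 2-fold lower with LPS as well, 6 of 10 measured markers in WT and 7 in MARCO-/-. Zbtb46, a transcription factor of conventional DC, went the other way, with 42.3 and 67.5 in WT and 45.4 and 118 in MARCO-/-, PBS before LPS. Their part in the members' values was not tested.

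**Figure D1:**
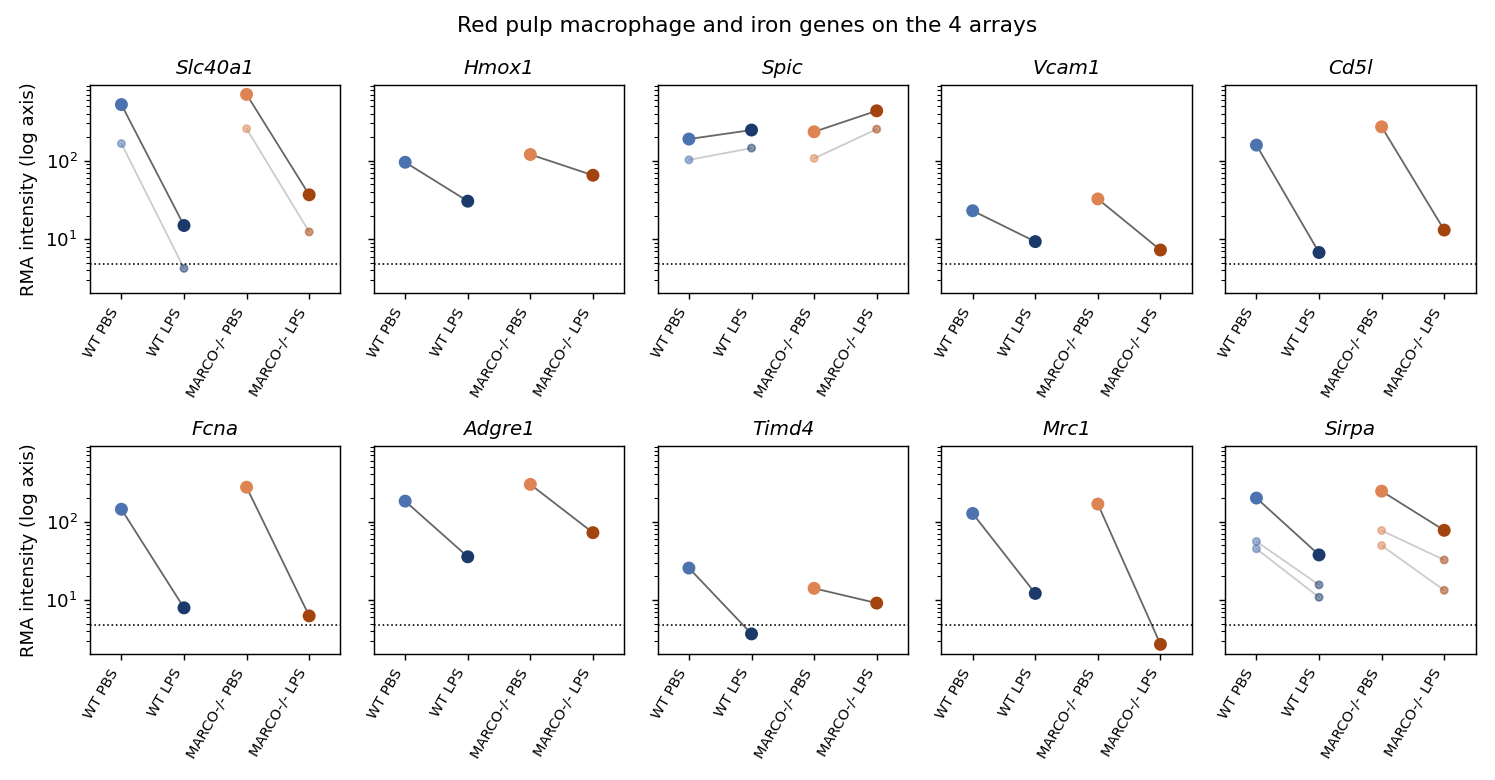
RMA intensity (vertical axis, log scale) of each gene on the 4 arrays (horizontal axis); each point is 1 array, large points are the brightest probe set of the gene and small pale points its other probe sets, lines join PBS to LPS within a genotype, and the dotted line is the median of all intensities (4.87). Slc40a1, Cd5l, Fcna and Mrc1 drop by an order of magnitude or more with LPS in both genotypes, Mrc1 to 2.72 on the MARCO-/- array, whereas Spic lies higher with LPS.

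Slc40a1 encodes ferroportin, the exporter through which iron leaves macrophages. Its intensity was 521 with WT PBS, 15.0 with WT LPS, 703 with MARCO-/- PBS and 36.9 with MARCO-/- LPS. Both LPS arrays were far below both PBS arrays, and MARCO-/- was the higher genotype in each condition. The value with LPS was 34.8-fold lower than with PBS in WT and 19.1-fold lower in MARCO-/-. Its other probe set had 166, 4.26, 257 and 12.4 in the same order, 39.0-fold and 20.7-fold lower. The WT LPS value of that probe set was under the median of all, so its WT fold is set by the background.

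Hmox1 encodes heme oxygenase 1, which converts heme to biliverdin, carbon monoxide and iron. It had 95.8 with WT PBS, 30.6 with WT LPS, 120.4 with MARCO-/- PBS and 65.4 with MARCO-/- LPS. The 2 LPS values were below the 2 PBS values. The decrease was 3.13-fold in WT and 1.84-fold in MARCO-/-, so only the first passed 2-fold.

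Spic encodes the ETS-family factor Spi-C, a relative of PU.1. It had 189 with WT PBS, 247 with WT LPS, 234 with MARCO-/- PBS and 434 with MARCO-/- LPS. The 2 LPS values lay above the 2 PBS values, by 1.30-fold in WT and by 1.85-fold in MARCO-/-. Its other probe set had 103, 145, 107 and 253, so LPS over PBS was 2.36-fold in MARCO-/- there, past the threshold that the brighter probe set missed. Both Spic probe sets carry the name endings that mark probes shared between transcripts. Spic, Vcam1 and Adgre1 are measured by probe sets with such endings alone.

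Of the 10 genes, 5 had an entry in the promoter sequences used (RefSeq, GRCm38.p6), and Slc40a1, Hmox1, Vcam1, Adgre1 and Sirpa had none. The 250 bases before the annotated start are shown for Cd5l, Fcna and Mrc1, which were at least 10-fold lower with LPS in both genotypes, and for Spic, which was not lower. Capitals mark GAGGAA, the core sequence that PU.1 and related ETS factors prefer, or its reverse complement TTCCTC.
Cd5l, chr3:87357631-87357880, plus strand: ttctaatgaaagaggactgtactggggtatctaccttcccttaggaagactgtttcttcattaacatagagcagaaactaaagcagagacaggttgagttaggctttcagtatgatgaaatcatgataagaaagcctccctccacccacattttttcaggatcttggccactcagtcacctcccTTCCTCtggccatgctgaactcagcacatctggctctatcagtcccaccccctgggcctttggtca
Fcna, chr2:25627975-25628224, minus strand: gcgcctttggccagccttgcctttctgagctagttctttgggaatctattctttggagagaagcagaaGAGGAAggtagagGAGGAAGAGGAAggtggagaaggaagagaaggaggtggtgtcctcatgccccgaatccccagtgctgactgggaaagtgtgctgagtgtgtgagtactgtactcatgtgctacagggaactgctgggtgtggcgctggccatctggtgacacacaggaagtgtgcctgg
Mrc1, chr2:14229164-14229413, plus strand: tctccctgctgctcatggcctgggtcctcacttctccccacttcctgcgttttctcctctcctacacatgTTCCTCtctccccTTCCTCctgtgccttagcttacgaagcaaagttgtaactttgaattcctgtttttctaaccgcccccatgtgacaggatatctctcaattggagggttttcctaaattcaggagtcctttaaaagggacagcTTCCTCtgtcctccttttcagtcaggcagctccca
Spic, chr10:88683024-88683273, minus strand: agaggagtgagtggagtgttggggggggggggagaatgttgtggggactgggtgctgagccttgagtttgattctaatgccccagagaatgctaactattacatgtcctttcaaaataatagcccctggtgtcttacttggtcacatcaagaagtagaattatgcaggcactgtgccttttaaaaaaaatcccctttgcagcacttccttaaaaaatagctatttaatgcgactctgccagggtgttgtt

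The Fcna and Mrc1 windows each held GAGGAA on either strand 3 times, the Cd5l window once, and the windows of Spic and Timd4 did not hold it. Of all 32851 promoter windows of that length, 23.3% held it at least once. TGACNNNGC, a core form of the antioxidant response element that NRF2 and BACH1 bind, was searched on both strands too, was in none of the 5 windows and was in 10.2% of all windows. A match of these letters is a description of the window and not a site. Windows of Hmox1, Slc40a1 and the other members without an entry were not searched.

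Cd5l and Fcna encode secreted proteins. Cd5l is the macrophage-derived apoptosis inhibitor AIM, a scavenger receptor cysteine-rich protein. It had 159 with WT PBS, 6.78 with WT LPS, 271 with MARCO-/- PBS and 13.1 with MARCO-/- LPS, and was thus 23.4-fold lower with LPS in WT and 20.7-fold lower in MARCO-/-. Fcna encodes ficolin A, a lectin that starts the lectin pathway of complement. Its intensity was 144 with WT PBS, 7.95 with WT LPS, 274 with MARCO-/- PBS and 6.27 with MARCO-/- LPS, 18.1-fold and 43.7-fold lower with LPS. On both LPS arrays Fcna was close to the background, as was Cd5l on the WT LPS array.

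Adgre1 encodes F4/80, the surface receptor that classically marks mouse macrophages. It had 182 with WT PBS, 35.6 with WT LPS, 298 with MARCO-/- PBS and 72.2 with MARCO-/- LPS, 5.12-fold and 4.12-fold lower with LPS. Its values stayed well above the background on all 4 arrays. Sirpa encodes an inhibitory receptor whose ligand CD47 protects red blood cells from engulfment. It had 199 with WT PBS, 37.6 with WT LPS, 244 with MARCO-/- PBS and 77.4 with MARCO-/- LPS, 5.31-fold and 3.16-fold lower with LPS. Its other probe sets were also at least 2-fold lower with LPS in both genotypes. Cd47 itself had 1341 and 1454 in WT and 1337 and 1755 in MARCO-/-, with PBS and LPS in turn.

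Mrc1 encodes the mannose receptor, which takes up glycoproteins and microbes. It had 127 with WT PBS, 12.1 with WT LPS, 167 with MARCO-/- PBS and 2.72 with MARCO-/- LPS. The decrease with LPS was 10.4-fold in WT, and in MARCO-/-, where the LPS value was under the median of all, at least 34.3-fold when that value was set to the median. Timd4 encodes TIM-4, a receptor for phosphatidylserine on dying cells. It had 25.6 with WT PBS, 3.70 with WT LPS, 14.1 with MARCO-/- PBS and 9.14 with MARCO-/- LPS. With the WT LPS value set to the median of all, it was at least 5.25-fold lower in WT, and it was 1.54-fold lower in MARCO-/-. Vcam1 encodes the adhesion molecule that binds the integrin VLA-4. It had 23.1 with WT PBS, 9.33 with WT LPS, 32.7 with MARCO-/- PBS and 7.29 with MARCO-/- LPS, 2.48-fold and 4.48-fold lower. Timd4 and Vcam1 had low values throughout, with highest intensities of 25.6 and 32.7.

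**Figure D2:**
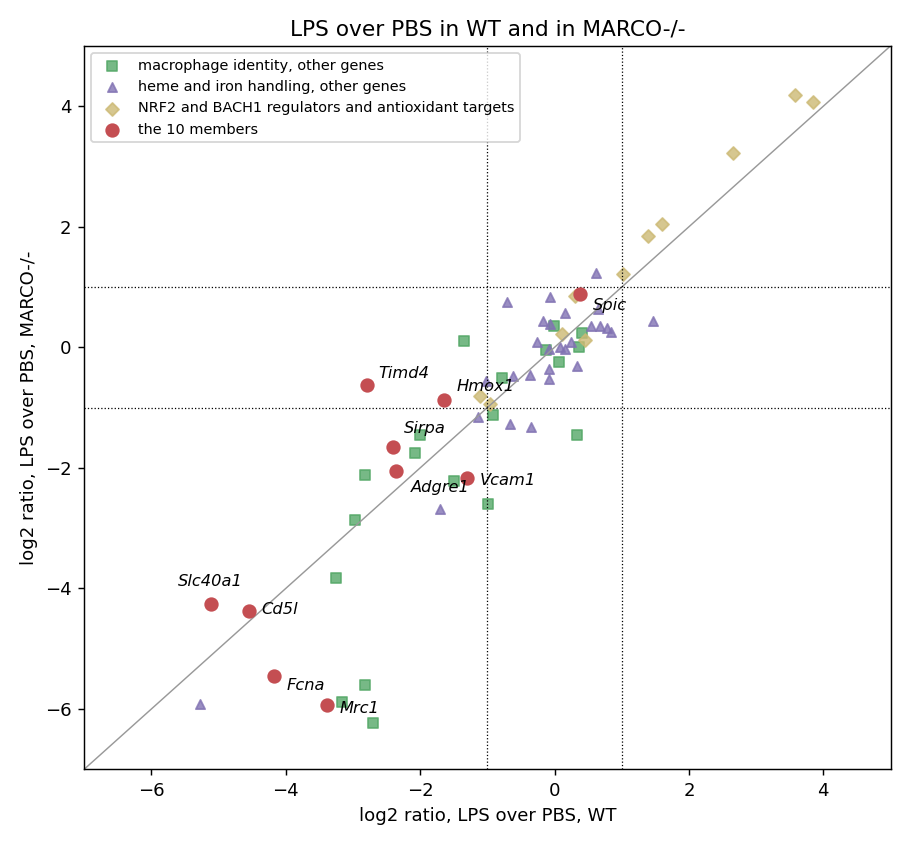
log2 ratio of LPS over PBS in WT (horizontal axis) and in MARCO-/- (vertical axis); points stand for genes (brightest probe set of each), red points are the 10 members, the other symbols are 3 fixed gene lists, the grey line marks equal responses and the dotted lines 2-fold. The members lie in the lower left, from -5.12 and -4.25 for Slc40a1, apart from Spic at 0.38 and 0.89. Among antioxidant targets, Srxn1 lies at 3.85 and 4.06, over PBS values close to the background.

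Without LPS, no member differed by 2-fold between the genotypes. As a background, 0.76% of all genes were at least 2-fold higher and 0.287% lower in MARCO-/-. The members' log2 ratios of MARCO-/- over WT ran from -0.86 for Timd4 to 0.93 for Fcna, with a median of 0.42 against 0.009 for all genes. A total of 9 members had a higher value in MARCO-/-. Fcna was 1.91-fold, Cd5l 1.71-fold and Adgre1 1.63-fold higher, which passed 1.5-fold, as did 2.62% of all genes. Timd4 was 1.81-fold lower, and 1.5% of all genes were lower by at least 1.5-fold. Other macrophage genes had higher values with them: of 19 measured genes of a list of macrophage identity, 4 were at least 2-fold higher (C1qb, C1qc, Pparg and Vsig4). Marco itself was lower, at 8.05 in WT and 3.95 in MARCO-/-, close to the background, as was Vsig4, at 3.65 and 7.46. The list had a median log2 ratio of 0.46. The summed intensity of that list was 3718 in WT and 4606 in MARCO-/-. Its part in the members' values was not tested.

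After LPS, MARCO-/- DC had values at least 2-fold above those of WT for 5 members and below for 1, where 2.09% of all genes were higher and 1.31% lower. Slc40a1 was 2.46-fold higher. Hmox1 was 2.14-fold, Sirpa 2.06-fold and Adgre1 2.03-fold higher, close to the threshold. Cd5l at 1.93-fold and Spic at 1.76-fold lay just under it, Cd5l over a WT value close to the background (6.78). Mrc1 was lower, by at least 2.49-fold with its MARCO-/- value set to the median of all and by 4.46-fold as measured. Timd4 was 2.47-fold higher as measured, over a WT value under the median of all, and 1.88-fold with that value set to the median, so that its call was lost and 5 members passed. Timd4, Fcna and Vcam1 were close to the background on both LPS arrays, where the order of the genotypes is not read. In the list of macrophage identity, Fcgr1, a receptor for IgG, passed 2-fold upward and C1qa, C1qb and C1qc downward. The lower values were close to the background: 7.60 for Fcgr1 in WT, and 6.06, 5.58 and 7.01 for the others in MARCO-/-. The summed intensity of the list's 19 genes was 905 in WT and 1093 in MARCO-/-.

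Each of these 6 calls depended on the processing. After quantile normalization or cyclic loess, Slc40a1, Timd4 and Mrc1 passed 2-fold as measured and Hmox1, Sirpa and Adgre1 did not. With 16 added to each value before log2, which damps ratios of low values, no member passed. The other probe set of Slc40a1 was 2.91-fold higher in MARCO-/- with LPS, over a WT value (4.26) under the median of all. Of the other probe sets of Sirpa, 1 was 2.08-fold and 1 was 1.23-fold higher. For all genes, 357 were higher and 224 lower with LPS as reported, 232 and 263 after quantile normalization, and 241 and 236 after cyclic loess.

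**Figure D3:**
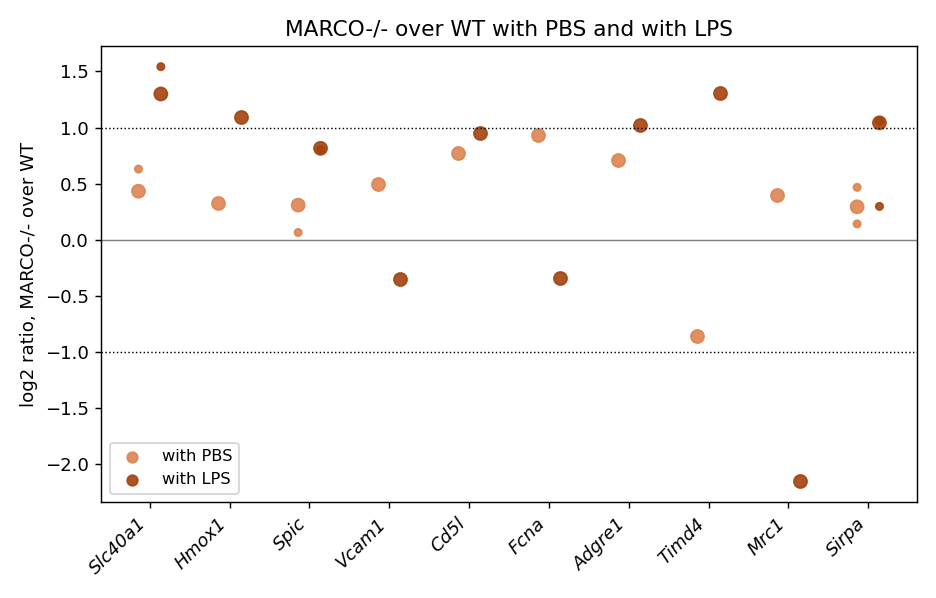
log2 ratio of MARCO-/- over WT (vertical axis) with PBS (light) and with LPS (dark) for each gene (horizontal axis); large points are the brightest probe set, small points the others, and dotted lines mark 2-fold. With PBS every point lies within 2-fold, and with LPS Mrc1 lies at -2.16 while Slc40a1 and Timd4 lie at 1.30, Timd4 over a WT value under the median of all (0.91 with that value set to the median).

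**Figure D4:**
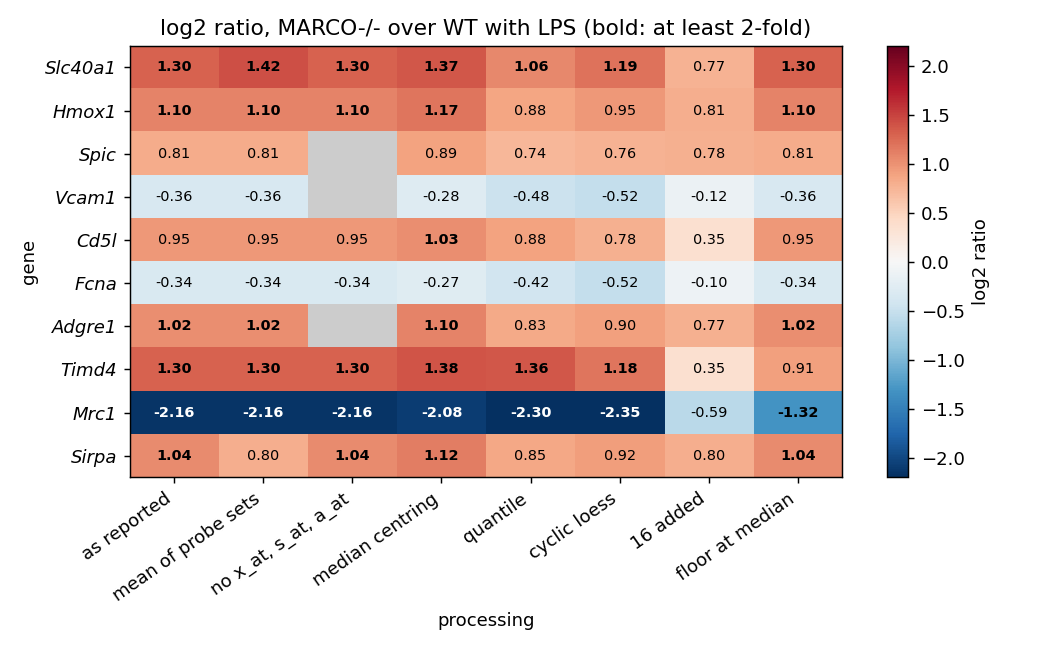
log2 ratio of MARCO-/- over WT with LPS for each gene (vertical axis) under the reported processing and 7 others (horizontal axis), in colour and as a number, bold at 2-fold or more, grey where no value can be had. Slc40a1 stays at or above 1.06 in every column but that with 16 added (0.77), while Hmox1, Sirpa and Adgre1 drop under 1 after quantile normalization (0.88, 0.85 and 0.83).

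The LPS response was also set against genotype for each gene, as the log2 ratio of LPS over PBS in MARCO-/- minus that in WT. This value is the same as the change of the genotype ratio from PBS to LPS, and with 1 array per condition it was not tested. It was at least 1 in size for 3 members, and 5.93% of all genes were past that size. With 16 added before log2 none of the 3 reached it (Timd4 0.82, Mrc1 -0.95 and Fcna -0.97), and Vcam1 passed it after quantile normalization and cyclic loess. Timd4 had 2.16, a smaller decrease in MARCO-/- as measured. Both of its LPS values were close to the background, so the order of the genotypes with LPS is not read for it. Mrc1 had -2.56, a larger decrease in MARCO-/-. Fcna had -1.27, but both of its LPS values were close to the background, so the size of its decrease in each genotype is not known. The remaining members had values between -0.86 for Vcam1 and 0.87 for Slc40a1. With values under the median of all set to it, which was added after seeing the data, Timd4 had 1.77 and Mrc1 -1.72. The mannose receptor gene Mrc1 was above WT in MARCO-/- cells given PBS and below WT in those given LPS, where Slc40a1, Adgre1 and Sirpa were above WT in both.

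Most other genes of heme and iron handling stayed within 2-fold with LPS, as most genes did. In either direction, 14.5% of all genes passed 2-fold with LPS in WT and 12.3% in MARCO-/-. Of 28 measured genes of that list, 1 was at least 2-fold higher with LPS in WT (Hp, which encodes the hemoglobin scavenger haptoglobin) and 4 were lower (Trf, Cd163, Cp and Lcn2). In MARCO-/- Ftl1 was higher and 5 were lower (Trf, Cd163, Cp, Lrp1 and Slc25a37). In WT, Lcn2 was close to the background on both arrays (8.69 and 4.27), as were Hp with PBS (7.24) and Cp with LPS (5.15). In MARCO-/- Cp was close to it on both (8.82 and 3.97). The LPS values of Trf and Cd163 were close to it in both genotypes. With PBS, 9 of the 28 genes in WT and 10 in MARCO-/- were already under 2 times the median of all. A decrease with LPS can hardly be seen for such genes. The median log2 ratio was -0.077 in WT and 0.043 in MARCO-/-, beside 0.054 and 0.00 for all genes. Trf, which encodes the iron carrier transferrin, had 197 and 5.08 in WT and 201 and 3.33 in MARCO-/-, with PBS and LPS in turn. Cd163, the receptor for hemoglobin bound to haptoglobin, had 20.8 and 6.35 in WT and 24.8 and 3.88 in MARCO-/-. The ferritin light chain gene Ftl1, for iron storage, had 1179.9 and 1803 in WT and 1016 and 2398 in MARCO-/-, 1.53-fold and 2.36-fold higher with LPS. The heavy chain gene Fth1 had 1923 and 2136 in WT and 1893 and 2805 in MARCO-/-. Between genotypes none of the 28 genes passed 2-fold with PBS, where 1.05% of all genes did, and 3.4% did with LPS. With LPS, Flvcr1, a heme exporter, and Aco1, an iron-sensing regulator of mRNA, were higher in MARCO-/-, and Slc25a37, the mitochondrial iron importer mitoferrin 1, was lower.

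Hmox1 is a textbook target of NRF2 and is repressed by BACH1, and several other targets of NRF2 went the opposite way with LPS. Of 11 measured regulators and antioxidant targets, 6 were at least 2-fold higher with LPS in WT and 6 in MARCO-/-, and 1 was lower in WT (Bach1, from 208 to 95.9). The median log2 ratio was 1.02 in WT and 1.21 in MARCO-/-. As a background, 6.2% of all genes were at least 2-fold higher with LPS in WT and 6.32% in MARCO-/-. Srxn1, which repairs oxidized peroxiredoxins, had 4.91 and 70.9 in WT and 5.33 and 89.0 in MARCO-/-. Slc7a11, the cystine importer, had 6.41 and 76.9 in WT and 6.54 and 118 in MARCO-/-. Gclm of glutathione synthesis had 56.9 and 173 in WT and 64.4 and 267 in MARCO-/-. Prdx1, Txnrd1 and Nqo1 completed the 6 in both genotypes. The PBS values of Srxn1, Slc7a11 and Nqo1 (2.79 in WT and 2.97 in MARCO-/-) were close to the background. The folds of these 3 genes are therefore set in part by the background. None of the 11 passed 2-fold between the genotypes in either condition, where 1.05% of all genes did with PBS and 3.4% with LPS.

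Other macrophage genes were low with LPS together with the members. Of 19 measured genes of macrophage identity, 10 were at least 2-fold lower in WT and 12 in MARCO-/-, and none was higher. Among all genes, 8.31% were lower and 6.2% higher in WT, and 5.98% and 6.32% in MARCO-/-. Csf1r, the receptor for the growth factor that macrophages need, had 115 and 14.6 in WT and 151 and 20.7 in MARCO-/-. Treml4, a receptor of red pulp macrophages and of some DC, had 289 and 41.1 in WT and 324 and 74.2 in MARCO-/-. Mertk, which binds dying cells through bridging proteins, had 72.5 and 7.62 in WT and 99.4 and 6.99 in MARCO-/-. The complement gene C1qa had 239.5 and 36.8 in WT and 458 and 6.06 in MARCO-/-, with C1qb and C1qc alike. Clec4f of Kupffer cells and the marginal zone genes Siglec1 and Cd209b were near the background on all 4 arrays. Of 16 genes of apoptotic cell uptake, 3 were at least 2-fold higher with LPS in WT (Gas6, Stab1 and Havcr1) and 4 lower (Mertk, Stab2, Havcr2 and Cd36). In MARCO-/- Havcr1 was higher and 5 were lower (Mertk, Stab2, Havcr2, Lrp1 and Elmo1). The WT PBS values of Gas6 and Stab1 were close to the background (5.87 and 6.48). Havcr2, which encodes TIM-3 of the same family as TIM-4, had 225 and 5.69 in WT and 229.5 and 10.1 in MARCO-/-.

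Among relatives and partners of the members, 24 genes were measured, with 3 at least 2-fold higher with LPS in WT (Ly75, Havcr1 and Mrc2) and 5 lower (Adgre4, Adgre5, Havcr2, Cd163 and Cd5). In MARCO-/- Ly75 and Havcr1 were higher and the same 5 genes were lower. The shares over all genes were 6.2% higher and 8.31% lower in WT, and 6.32% and 5.98% in MARCO-/-. The WT PBS value of Mrc2 was close to the background (3.41). The adhesion G protein-coupled receptor genes Adgre4 and Adgre5, close relatives of Adgre1, were among the lower ones in both genotypes. Adgre4 had 129 and 2.74 in WT and 179 and 7.92 in MARCO-/-. Adgre5, which encodes CD97, had 772 and 58.2 in WT and 881 and 90.5 in MARCO-/-. Ly75, which encodes DEC-205 of the mannose receptor family, went the other way, with 71.9 and 221 in WT and 45.7 and 305 in MARCO-/-. Spi1, which encodes PU.1, had 147 and 73.7 in WT and 161 and 99.2 in MARCO-/-.

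Transcripts of other spleen cells differed between the arrays as well. With LPS, 8.31% of all genes were at least 2-fold lower and 6.2% higher in WT, and 5.98% and 6.32% in MARCO-/-. Of 9 measured monocyte and neutrophil markers, 5 were at least 2-fold lower with LPS in each genotype (Ccr2, Cx3cr1, S100a8, S100a9 and Fcgr4) and none was higher. Their summed intensity was 827 and 299 in WT and 997 and 368 in MARCO-/-, with PBS and LPS in turn. The PBS sum was higher in MARCO-/- through Fcgr4, an IgG receptor gene, which had 44.7 and 9.21 in WT and 359 and 8.03 in MARCO-/-. Without it the sums were 782 and 289 in WT and 638 and 359.9 in MARCO-/-. Ly6c1 made up most of the LPS sums, with 210 in WT and 307 in MARCO-/-. With PBS, Cx3cr1 of monocytes was higher in MARCO-/- (88.2 in WT and 119.7) while Ccr2 (127 and 63.5), S100a8 (129.9 and 91.2) and S100a9 (194 and 153) were lower. The summed intensity of 6 erythroid markers was 4415 and 3997 in WT and 6411 and 6839 in MARCO-/-, mostly from Hba-a1. Of these 6, Alas2, Slc4a1 and Klf1 passed 2-fold with PBS and Alas2 with LPS, each with MARCO-/- above WT. Stromal and endothelial markers, whose cells can display Vcam1, had summed intensities of 93.6 and 1129.8 in WT and 433 and 98.9 in MARCO-/-. Both high sums were mostly from Col3a1, a collagen gene of fibroblasts, which had 4.57 and 959 in WT and 315 and 12.1 in MARCO-/-. Without it the sums were 89.0 and 170.6 in WT and 117.8 and 86.9 in MARCO-/-. Dcn, with 4.48 and 67.0 in WT and 14.8 and 3.71 in MARCO-/-, was also highest with WT LPS. So was Col1a1, with 4.15 and 29.5 in WT and 7.01 and 2.75 in MARCO-/-. With LPS, 4 of the 13 markers were at least 2-fold higher and 1 lower in WT, and none higher and 5 lower in MARCO-/-. MARCO-/- was at least 2-fold above WT for 3 with PBS (0.76% of all genes) and below for 3 with LPS (1.31%). Pecam1 of endothelium had 33.4 and 8.88 in WT and 28.7 and 11.8 in MARCO-/-. Of these 13 markers, Col1a2, Pdgfra, Pdgfrb, Lum, Cdh5, Tek and Madcam1 stayed near the background on all arrays. The part of these cells in the members' values was not tested.

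The genes with the most similar profiles over the 4 arrays were taken by the root mean square difference of log2 values, each gene centred on its own mean, among 4715 genes with a highest intensity of at least 64. Slc40a1 was nearest to Adgre4, at 0.19, and then to Cd5l, at 0.21. Mrc1 was nearest to C1qa and C1qb, at 0.26 and 0.29. Hmox1 was nearest to Ddhd1, a phospholipase gene, at 0.061, and to Nlrp3, the inflammasome sensor, at 0.082. Spic was nearest to N4bp2l1 at 0.045. Cd5l was nearest to Cd7 at 0.17 and Fcna to the immediate early gene Egr1 at 0.18. Adgre1 was nearest to Hebp1, a heme-binding protein gene, at 0.069, and Hebp1 was also near Sirpa, at 0.11, after Arhgap39 and Gpm6b. Vcam1 and Timd4 did not reach the intensity this comparison asked for. Adgre4, Cd5l, Cd7, Gpm6b, Mrc1, C1qa, C1qb and Fcna each had a value close to the background with LPS, so their distances rest in part on the background. With 4 arrays such likeness is a description of these arrays.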

How the data were processed

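RNA of CD11c-selected splenic DC was measured on Affymetrix arrays, 1 per condition. The study's methods name them Mouse Genome 430 2.0. The deposited names of the members' probe sets carry the letters PM, and the array type was not checked further. The authors took CEL files through RMAexpress (version not stated) and deposited RMA intensity values on a linear scale. Of 45141 probe sets, 104 controls were left out. Probe sets were named from the platform annotation: 28898 have exactly 1 symbol, 551 several, and 15588 are not listed. The brightest probe set of a gene, by mean log2 intensity over the arrays, stood for it. Ratios are differences of log2 intensities with no offset. The number of arrays limits the precision. The study made 3 pools for each genotype and does not state which were hybridized. The members and gene lists were chosen with earlier results of these data known. List genes were named if among the 6 of largest log2 ratio in size and above the median of all intensities. Genes named beside a count, Fth1, Cd47, Spi1, Bach1 and the genes near background were added after their values were seen. Counts were repeated under 12 other settings, 1 of them added after the data were seen. The 2-fold call and the choice of the brightest probe set were tested on simulated data with planted ratios, and the other steps were not. Python 3.11.15, numpy 2.4.6, pandas 2.3.3, matplotlib 3.10.9, R 4.3.3 and limma 3.58.1 (quantile normalization and cyclic loess) were used.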

Additional observations from a re-analysis of the deposited data

Results flagged for a closer look

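For 4 members, the genotypes differed in opposite directions with PBS and with LPS, on the 1 array of each condition, and the difference was not tested. The log2 ratio of MARCO-/- over WT with LPS minus that with PBS was 2.16 for Timd4, which was lower in MARCO-/- with PBS and higher with LPS. It was -2.56 for Mrc1, -1.27 for Fcna and -0.86 for Vcam1, all with MARCO-/- above WT in PBS and below WT in LPS. Both LPS values of Timd4, Fcna and Vcam1 and the MARCO-/- LPS value of Mrc1 lay under 2 times the median intensity of their arrays, close to the background, so the order of the genotypes with LPS is not read for the first 3. With values under the median of all set to it, the differences were 1.77 for Timd4 and -1.72 for Mrc1.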

How the results depend on the processing

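No paired analysis was possible because each condition is 1 array and no replicate number is shared between groups, and for the same reason no array could be left out. With LPS, the 6 members past 2-fold between the genotypes became 3 after quantile normalization, 3 after cyclic loess, 1 at a 3-fold threshold (Mrc1 as measured, at least 2.49-fold with its low value set to the median of all) and 0 with 16 added before log2. With PBS, 4 members passed a 1.5-fold threshold. For LPS over PBS in MARCO-/-, 11 of 14 probe sets passed 2-fold when every probe set was counted. The difference of LPS responses was -1.05 for Vcam1 after quantile normalization and -1.06 after cyclic loess, and with 16 added it was -0.97 for Fcna, 0.82 for Timd4 and -0.95 for Mrc1. The other 42 counts stayed within a factor of 1.5 of the reported one, and the other 62 differences stayed on their side of 2-fold. Of the members' ratios under the other settings, 251 stayed on their side of 2-fold, 15 fell under it, 2 passed it and none past 2-fold changed direction. Without probe sets ending in x_at, s_at or a_at, Spic, Vcam1 and Adgre1 gave no value. Signal over background limits Timd4, Vcam1, Fcna and Mrc1 with LPS, and Cd5l and the other probe set of Slc40a1 with LPS in WT.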
